A study of Mus musculus with 16 samples.

Results

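The myofiber-associated myoblasts of this study were satellite cell progeny that had been kept on explanted single myofibers, and they are described here at 72 hr after isolation against 48 hr. The members are the 8 arrays labelled as myofibre-associated, 4 at 72 hr (replicates 1, 2, 3 and 4) and 4 at 48 hr (replicates 7, 8, 9 and 10+11), of 16 arrays in the series. The other 8 arrays carry dispersed myoblasts, 4 at each time, grown away from the fiber and prepared from 1 mouse each. All preparations came from male C57Bl/6J mice of 11 to 13 weeks with no further treatment or allele, and each myofiber-associated preparation used 2 mice. At 48 or 72 hr the cells that washed off the fibers were combined with those that trypsin released, and the stripped fibers were discarded, so a preparation is what came loose from the fibers and not a sorted population. The array of 48 hr replicate 10+11 carried 2 preparations pooled, and every other array carried 1. RNA was labelled and hybridized to Agilent mouse arrays in 1 color, and each value below is a normalized log2 intensity, on which a step of 1 is a doubling.

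Satellite cells are the stem cells of skeletal muscle and lie between the myofiber and its basal lamina. Once activated they divide as myoblasts, which express the transcription factors Pax7, Myf5 and Myod1. Myoblasts that leave the cell cycle turn on Myog, assemble acetylcholine receptors and embryonic sarcomere proteins and fuse through the membrane proteins Mymk and Mymx, while others keep Pax7 and return to quiescence. A myoblast cultured on its fiber keeps contact with the fiber membrane and the basal lamina, and the comparison asks how its transcripts move over the day in which the first cells differentiate.

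The 8 arrays lay on 1 slide scanned in 1 session. The 4 arrays of 72 hr filled slide columns 1 and 2, and columns 3 and 4 held those of 48 hr, so slide column and time cannot be told apart, whereas slide rows 1 and 2 each held both times. The pooled array stood apart from the rest. On principal component 2, which held 12.4% of the variance, it lay at 57.3 and the other 7 arrays between -18.7 and 4. Against the other 48 hr arrays it was higher in the matrix metalloproteases Mmp13 (11.8 against 5.73 to 6.62) and Mmp3 (16.2 against 12.7 to 12.9) and in the chemokine Cxcl5 (16.1 against 13.1 to 13.2). Principal component 1, with 70.5% of the variance, separated the times, and the 72 hr arrays spread along it, with replicates 1 and 3 at 75.2 and 83.3 and replicates 2 and 4 at 21.4 and 10.7. Replicates 1 and 3 lay in slide column 1 and replicates 2 and 4 in column 2, so this split coincides with slide column. A gene's SD within a time was 0.214 at the median at 48 hr, 0.154 when the pooled array was left out, and 0.178 at 72 hr.

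**Figure D1:**
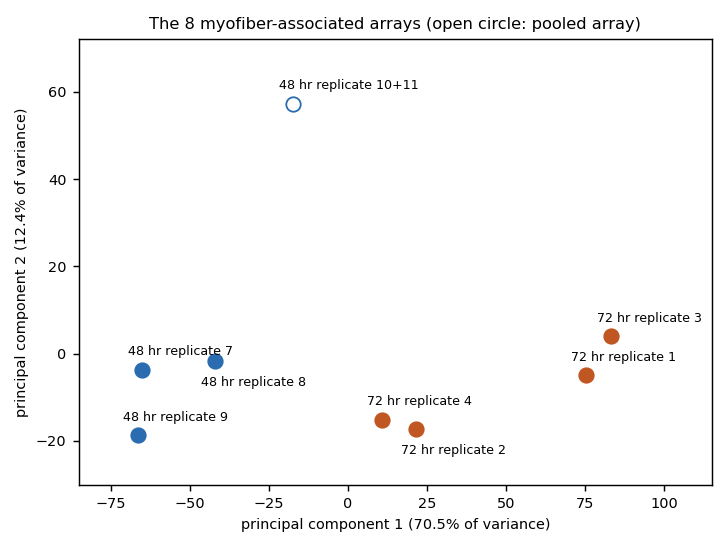
The 8 myofiber-associated arrays on principal components 1 and 2 of the normalized log2 intensities (arbitrary units), blue for 48 hr and orange for 72 hr, with the pooled array as an open circle. The pooled array is alone at 57.3 on component 2, and 72 hr replicates 1 and 3 lie farthest from the 48 hr arrays on component 1.

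The labelled cell type was compared with marker genes. Of 9 myoblast markers 8 were tested and all 8 were well above background on every array, with a mean log2 intensity of 12.1 to 12.5 at 48 hr and 12.8 to 12.9 at 72 hr. So were all 32 isoforms of adult muscle fibers, with a mean log2 intensity of 14.4 to 15.4 at 48 hr and 11.7 to 14 at 72 hr. With all 16 arrays normalized together, the same list averaged 14.5 to 15.4 and 11.8 to 14.1 on the myofiber-associated arrays at 48 and 72 hr, against 8.81 to 9.80 and 7.69 to 8.24 in dispersed myoblasts. The labels state that the preparations held no RNA of the fiber. Whether the fiber transcripts came from the myoblasts or from fiber remnants was not tested, and culture and slide cannot be told apart.

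Of 20372 genes tested, 728 were higher (3.57% of those tested) and 308 lower (1.51%) at 72 hr at an adjusted p under 0.01 by limma with Benjamini-Hochberg adjustment, the threshold and the test for every call below. The called genes had a median absolute log2 change of 1.32. Over all genes tested the median signed log2 change, in which rises and falls offset each other, was 0.0581. Of all genes tested, 56.5% had a change above 0. With slide row as a block 511 genes were called, 366 of them higher and 145 lower. At an adjusted p under 0.05 there were 2668 higher (13.1%) and 1834 lower (9%). At an unadjusted p under 0.05 by limma there were 8436 of the 20372 genes, both directions together. The unadjusted counts of the lists below are to be read against that share, and their counts of called genes against 3.57% higher and 1.51% lower. Without the pooled array 1387 genes were higher (6.81%) and 607 lower (2.98%), and 947 of the 1036 genes were among them. The counts depended on single arrays, from 205 called genes without 48 hr replicate 7 and 266 without 72 hr replicate 1 to 1994 without the pooled array, and 190 genes were called in all 8 fits that left out 1 array.

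The largest rise was in Sct, the gene of the gut hormone secretin. It read 10.69, 11.63, 11.49 and 13.21 at 48 hr and 18.23, 17.62, 18.07 and 17.63 at 72 hr. Every 72 hr array was above every 48 hr array, as was the case for every gene called higher. Sct was 70.1-fold higher at 72 hr (log2 change 6.13, SE 0.47, adjusted p = 0.000677). Among the next largest rises were Myh3 and Mymx, described with sarcomere and fusion genes, and several genes that are known from other tissues. Nebl encodes nebulette, a thin-filament protein of the heart, and it read 3.49, 3.25, 4.22 and 4.57 at 48 hr and 9.96, 9.16, 9.15 and 8.57 at 72 hr (log2 change 5.33, SE 0.36, adjusted p = 0.000589). The bone-lineage genes Tmem119, which encodes a membrane protein of osteoblasts, and Sp7, which encodes the transcription factor osterix, both rose. Tmem119 read 8.13, 8.16, 8.59 and 9.10 at 48 hr and 13.85, 12.98, 13.56 and 12.86 at 72 hr (log2 change 4.82, SE 0.29, adjusted p = 0.000503). Sp7 read 4.67, 4.59, 4.69 and 6.30 at 48 hr and 10.36, 9.73, 9.85 and 9.38 at 72 hr, with the pooled array highest at 48 hr (log2 change 4.77, SE 0.40, adjusted p = 0.000821).

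Several of the other large rises were in signaling genes. Camk1g, a calcium/calmodulin-dependent kinase, read 7.44, 8.24, 7.72 and 9.05 at 48 hr and 13.43, 12.34, 13.32 and 12.09 at 72 hr (log2 change 4.68, SE 0.42, adjusted p = 0.000957). Mc4r, the melanocortin receptor known for appetite control in the brain, rose by 5.03 (SE 0.44), and Diras2, a small GTPase, by 4.23 (SE 0.31). Dynap, which encodes a dynactin-associated membrane protein, rose by 5.45 (SE 0.43), and Nhlrc4 by 4.13 (SE 0.32). Dner, a transmembrane protein with EGF-like repeats that is known as a Notch ligand of neurons, was not well above background on any 48 hr array and its level at 72 hr was at least 10.3-fold higher (adjusted p = 0.00145). The bound sets the 72 hr mean against the lowest signal among well-measured probes on each 48 hr array, or the gene's own signal where that was higher. Fras1, a basement membrane protein of epithelia, was well above background on 1 of 4 arrays at 48 hr, as were Nebl and Myh3, and read 4.34, 3.498, 2.67 and 2.45 at 48 hr and 8.41, 6.95, 7.97 and 6.495 at 72 hr (log2 change 4.22, SE 0.53, adjusted p = 0.00268). Apart from Myh3, the genes of this and the preceding paragraph passed the threshold in every fit that left out 1 array.

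**Figure D2:**
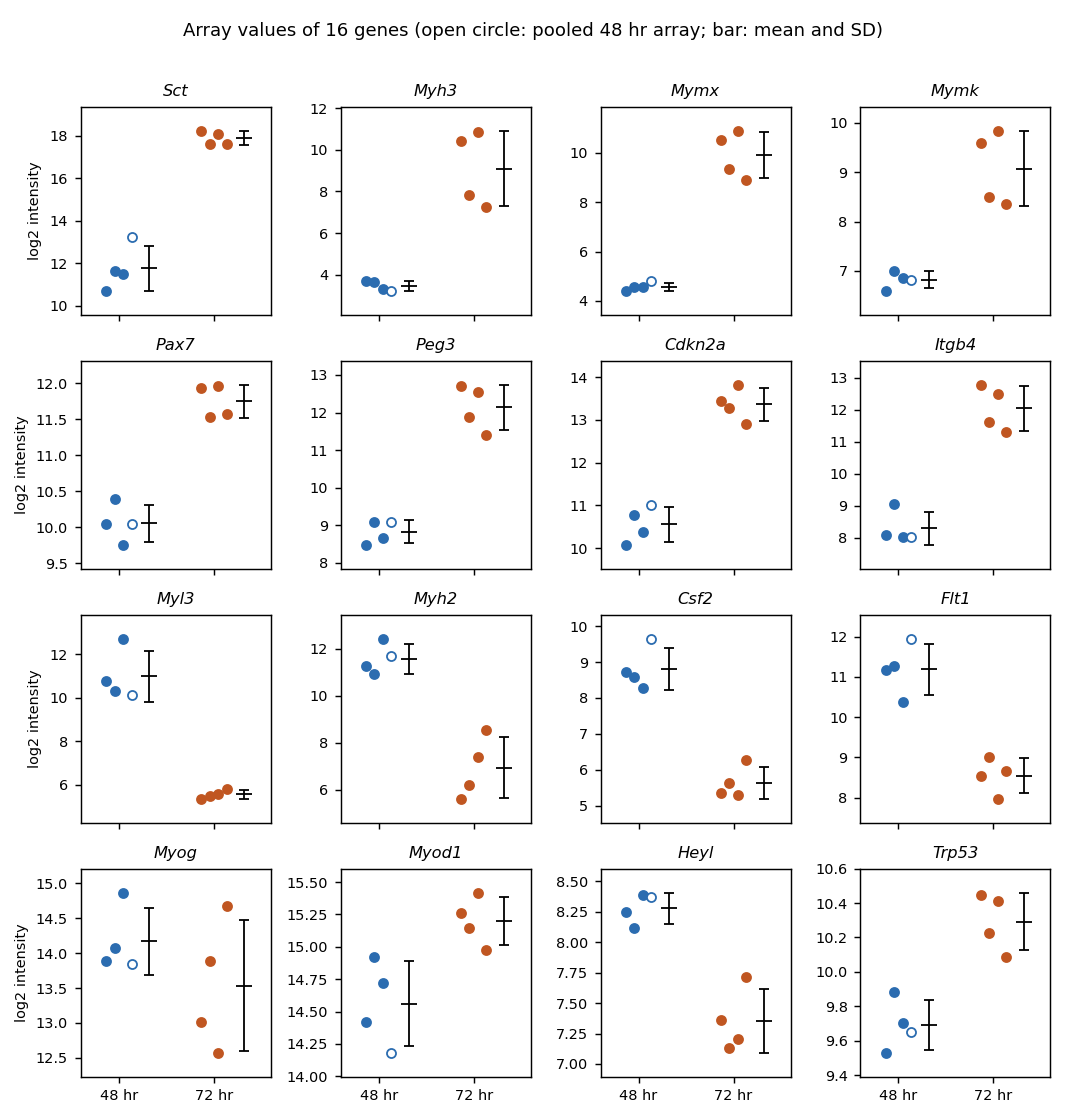
Normalized log2 intensity (vertical axes, each with its own range) of 16 genes on the 4 arrays of 48 hr (blue, pooled array open) and of 72 hr (orange), with the mean and SD beside them. The times are far apart for Sct, Mymx and Pax7, 72 hr replicates 1 and 3 lie above replicates 2 and 4 for Myh3, Mymk and Peg3, and for Myog the 48 and 72 hr values overlap.

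Of 27 tested genes of myoblast fusion and adhesion (list of 30, median 0.27), 7 rose and none was called lower, and at an adjusted p under 0.05 there were 11 higher and 4 lower. Mymx, listed on the array under its older name Gm7325, encodes the micropeptide that completes membrane fusion. It read 4.40, 4.55, 4.55 and 4.79 at 48 hr and 10.52, 9.33, 10.90 and 8.91 at 72 hr (log2 change 5.35, SE 0.41, adjusted p = 0.000677), a 40.7-fold rise. Mymk, listed as Tmem8c, encodes the membrane protein that starts it, and read 6.60, 7.01, 6.86 and 6.82 at 48 hr and 9.59, 8.51, 9.84 and 8.35 at 72 hr (log2 change 2.25, SE 0.33, adjusted p = 0.00496). On both genes 72 hr replicates 1 and 3 were the highest. Jam2, an adhesion molecule at contacts between cells, read 10.52, 10.68, 10.55 and 11.21 at 48 hr and 12.86, 12.47, 12.76 and 12.45 at 72 hr (log2 change 1.89, SE 0.18, adjusted p = 0.00107). The muscle cadherin Cdh15 read 12.41, 12.47, 12.54 and 11.71 at 48 hr and 13.87, 13.39, 13.60 and 13.54 at 72 hr, lowest on the pooled array (log2 change 1.32, SE 0.20, adjusted p = 0.00514). The other 3 that rose were the surface proteins Cdon (1.82) and Cd81 (0.65) and the matrix protein Npnt (1.62), given as log2 changes and called in 7, 1 and 2 of the 8 fits without 1 array, in that order. Mymx and Jam2 passed without any 1 array, whereas the adjusted p was 0.0204 without 48 hr replicate 7 for Mymk and 0.0194 without 72 hr replicate 1 for Cdh15.

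Acetylcholine receptor subunits are made by differentiating myoblasts before a nerve arrives, and 3 of 15 tested genes of the receptor and junction were called higher and none lower (3 lower at an unadjusted p under 0.05). Chrna1, the alpha subunit that binds the transmitter, read 15.39, 15.73, 15.57 and 15.47 at 48 hr and 17.10, 16.83, 17.19 and 16.72 at 72 hr (log2 change 1.42, SE 0.13, adjusted p = 0.00107). Chrng, the gamma subunit of the fetal receptor, read 6.90, 7.21, 7.31 and 6.71 at 48 hr and 9.199, 8.21, 9.28 and 8.39 at 72 hr (log2 change 1.74, SE 0.27, adjusted p = 0.00565), and the agrin receptor Lrp4 rose by 0.79 (SE 0.13). Chrna1 passed in all fits without 1 array, and the adjusted p rose to 0.0236 without 48 hr replicate 7 for Chrng and 0.0264 without 72 hr replicate 1 for Lrp4.

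The promoters of both receptor subunits are shown because myogenic factors bind E-boxes, sites of the form CANNTG of which CAGCTG is a preferred form, and because both transcripts rose. Each sequence is the RefSeq stretch of 250 bases before the gene's start in GRCm38.p6, read 5′ to 3′ on the gene's strand, with every CAGCTG in capitals. That of Sct is added as the largest rise. Chrna1 lies at chr2:73580339-73580588 on the minus strand, Chrng at chr1:87205561-87205810 on the plus strand and Sct at chr7:141279134-141279383 on the minus strand.
Chrna1: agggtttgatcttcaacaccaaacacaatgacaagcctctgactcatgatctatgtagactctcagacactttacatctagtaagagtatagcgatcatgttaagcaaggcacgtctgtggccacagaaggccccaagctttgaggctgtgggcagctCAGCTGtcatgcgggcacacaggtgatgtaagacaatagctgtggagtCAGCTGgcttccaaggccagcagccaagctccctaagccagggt
Chrng: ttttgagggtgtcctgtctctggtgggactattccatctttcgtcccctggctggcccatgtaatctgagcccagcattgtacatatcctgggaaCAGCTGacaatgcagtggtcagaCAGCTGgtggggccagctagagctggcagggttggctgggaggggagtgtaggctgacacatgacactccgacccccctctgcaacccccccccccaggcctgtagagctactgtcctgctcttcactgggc
Sct: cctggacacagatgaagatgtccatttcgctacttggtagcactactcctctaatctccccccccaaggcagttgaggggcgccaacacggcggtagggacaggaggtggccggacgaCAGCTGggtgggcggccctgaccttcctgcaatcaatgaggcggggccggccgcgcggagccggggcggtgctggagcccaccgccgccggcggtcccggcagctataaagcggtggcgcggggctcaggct
The Chrna1 stretch holds CAGCTG 92 and 44 bases before the start, that of Chrng 155 and 132 bases before it, and that of Sct 132 bases before it. The motif reads the same on both strands, and every CAGCTG is also a CANNTG. Over 27025 promoters (250 bases before the start and 50 after it, 1 a gene), 16.1% held CAGCTG, 72.1% CANNTG and 3.26% a MEF2 consensus site on either strand. Of the 14 developmental sarcomere genes, 5 (35.7%), 13 (92.9%) and 1 (7.14%) held them. For the genes called higher the table held a promoter for 491 of 728, under 80%, so no share is given for them. A match describes letters in the window and not binding.

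Embryonic sarcomere genes did not move together. Of 14 developmental isoforms, 1 was called higher and none lower, at an unadjusted p under 0.05 there were 4 higher and 6 lower, and the list median was -0.31. The called gene was Myh3, the embryonic myosin heavy chain, which read 3.70, 3.63, 3.33 and 3.22 at 48 hr and 10.42, 7.85, 10.86 and 7.25 at 72 hr. The rise of 5.62 (SE 0.78, adjusted p = 0.00374) is a fitted value, since 3 of the 4 arrays at 48 hr were not well above background, and the call held in 4 of 8 fits without 1 array, with an adjusted p of 0.0158 without 48 hr replicate 7. Myh8, the perinatal myosin heavy chain, read 18.67, 18.54, 18.67 and 18.42 at 48 hr and 16.64, 18.01, 16.32 and 18.34 at 72 hr (log2 change -1.25, SE 0.43, adjusted p = 0.068). Acta1, the skeletal actin of both fetal and adult fibers, read 18.64, 18.53, 18.64 and 18.34 at 48 hr and 16.45, 17.92, 16.14 and 18.27 at 72 hr (log2 change -1.35, SE 0.46, adjusted p = 0.065). On both, 72 hr replicates 1 and 3 were the lowest, the same 2 arrays that were highest in Myh3.

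Adult fiber genes had lower values at 72 hr. All 32 adult isoforms had a change below 0, with a list median of -2.12, and 3 fell by the test while 30 were lower at an unadjusted p under 0.05. Myl3, the light chain of slow and cardiac myosin, read 10.78, 10.29, 12.71 and 10.12 at 48 hr and 5.35, 5.47, 5.58 and 5.80 at 72 hr and fell by 5.42 (adjusted p = 0.00107). Myh2, the heavy chain of fast oxidative fibers, read 11.26, 10.93, 12.43 and 11.67 at 48 hr and 5.61, 6.22, 7.39 and 8.55 at 72 hr (log2 change -4.63, SE 0.62, adjusted p = 0.00331). Myl2, the regulatory light chain of slow fibers, read 8.66, 8.18, 8.98 and 7.62 at 48 hr and 4.37, 4.42, 4.23 and 4.31 at 72 hr (log2 change -4.03, SE 0.26, adjusted p = 0.000589). Ckm, muscle creatine kinase, read 17.71, 17.18, 17.57 and 16.75 at 48 hr and 14.25, 16.05, 13.81 and 16.64 at 72 hr and did not pass (log2 change -2.12, SE 0.61, adjusted p = 0.0424). Of the 3 calls, those of Myl3 and Myl2 held without any 1 array, while Myh2 was called in 5 of 8 such fits, with an adjusted p of 0.0137 without 48 hr replicate 7.

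The scaffold of the sarcomere and the calcium release machinery showed lower values too. Of 32 genes, 31 had a change below 0 (list median -1.40), none passed 0.01 by limma, 10 passed 0.05, all of them lower, and 23 were lower at an unadjusted p under 0.05. The smallest adjusted p were in Jph2, a protein that ties the T-tubule to the calcium store, which read 10.98, 10.87, 11.13 and 9.85 at 48 hr and 9.44, 9.49, 9.45 and 9.94 at 72 hr (log2 change -1.13, SE 0.28, adjusted p = 0.026), and in Tmod1, which caps thin filaments, which read 10.84, 10.37, 10.69 and 9.67 at 48 hr and 7.30, 9.09, 6.797 and 9.18 at 72 hr (log2 change -2.30, SE 0.57, adjusted p = 0.0266). Without the pooled array, 1 gene of this list was called lower. The spread of these lists at 72 hr was wide. The adult isoforms averaged 12.1, 13.6, 11.7 and 14 on 72 hr replicates 1 to 4 and 15.3, 14.8, 15.4 and 14.4 on 48 hr replicates 7, 8, 9 and 10+11. Replicates 1 and 3, the 72 hr arrays with the least fiber signal, are those in which Myh3, Mymx and Mymk were highest. Among genes described below, the same arrays were highest in Pax7, Megf10, Peg3, Notch3, Fgfr4, Cdkn2a, Cdkn2b, Ccnd3, Trp53, Trp53inp1 and Mest. In Myog they were the lowest of the 72 hr arrays. Replicates 1 and 3 shared slide column 1, and replicates 2 and 4 shared column 2. Fiber signal and slide column therefore cannot be told apart in this split of the 72 hr arrays. The part of fiber RNA in the differences of all these genes was not tested. In bulk RNA, fewer cells of a type and less RNA per cell cannot be told apart.

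**Figure D3:**
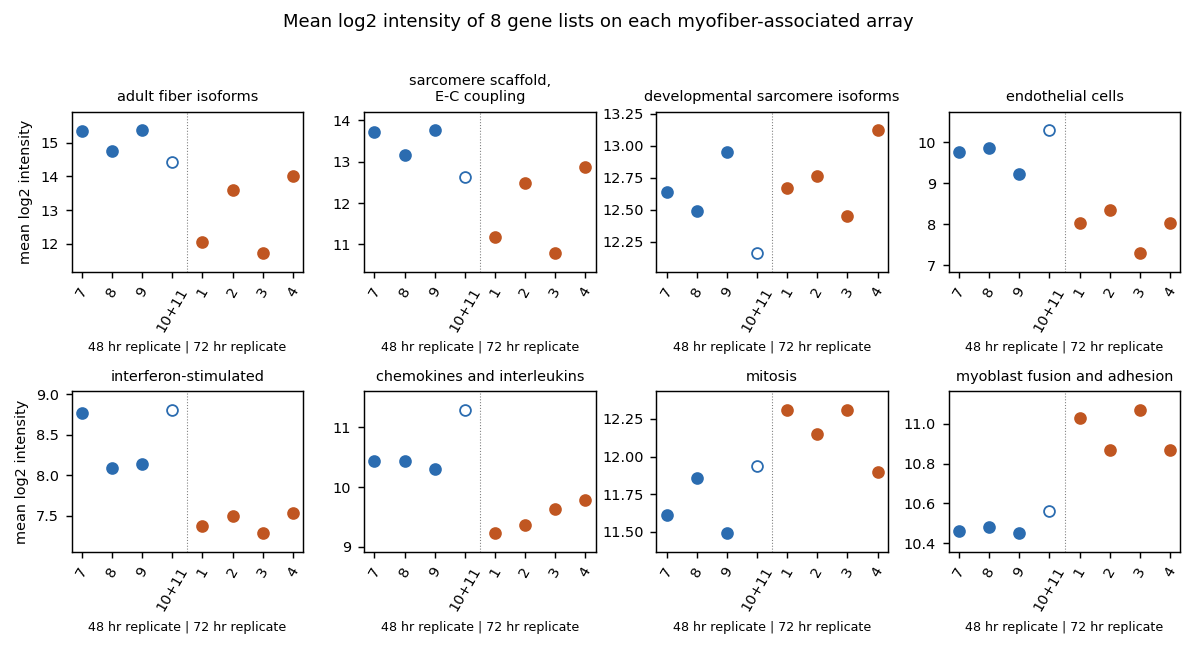
Mean log2 intensity (vertical axes, each with its own range) of the tested members of 8 gene lists on each array, 48 hr replicates 7, 8, 9 and 10+11 in blue (pooled array open) and 72 hr replicates 1 to 4 in orange. Adult fiber isoforms, sarcomere scaffold and endothelial genes are lower on every 72 hr array, with the exception that scaffold genes on 72 hr replicate 4 lie above the pooled array, and fusion genes are higher on every 72 hr array.

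Among the myogenic regulators, the determination factors showed small differences. Myod1 read 14.42, 14.92, 14.72 and 14.18 at 48 hr and 15.26, 15.14, 15.42 and 14.98 at 72 hr, without overlap but short of the threshold (log2 change 0.64, SE 0.17, adjusted p = 0.0358). Myf5 read 6.19, 6.34, 6.02 and 6.59 at 48 hr and 6.84, 7.06, 7.26 and 6.27 at 72 hr, with overlap (log2 change 0.57, SE 0.22, adjusted p = 0.0893). Myog, the factor of terminal differentiation, read 13.88, 14.08, 14.87 and 13.85 at 48 hr and 13.02, 13.89, 12.57 and 14.67 at 72 hr (log2 change -0.63, SE 0.45, adjusted p = 0.312). Its groups overlapped, the highest and the lowest array within each time being farther apart than the means of the times. Of 25 tested regulators in a list of 26, 3 were called higher and 1 lower. Id3 and Id2, which bind E-proteins and keep them from DNA, rose by 0.80 (SE 0.08) and 0.94 (SE 0.17). Twist1, a repressor of myogenesis, fell by 1.34 (SE 0.21). Id3 held in all fits without 1 array, and the adjusted p was 0.0365 without 72 hr replicate 1 for Id2 and 0.0245 without 72 hr replicate 1 for Twist1.

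The Myog promoter is shown with its CANNTG sites in capitals, because Myog is the gene whose course differed most from that in dispersed myoblasts among the genes named for their roles. The stretch is the RefSeq sequence of 250 bases before the start in GRCm38.p6, chr1:134289754-134290003 on the plus strand, and its sites lie 138 and 12 bases before the start, neither of them CAGCTG.
Myog: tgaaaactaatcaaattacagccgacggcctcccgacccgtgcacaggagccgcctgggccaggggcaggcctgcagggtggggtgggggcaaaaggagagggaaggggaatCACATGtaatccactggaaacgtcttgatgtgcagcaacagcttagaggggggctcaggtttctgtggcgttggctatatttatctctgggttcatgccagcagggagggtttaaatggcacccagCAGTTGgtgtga

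Genes of satellite cell identity included 5 called higher and 2 lower of 20 tested (list of 24, median 0.46). Pax7, the factor that defines satellite cells, read 10.04, 10.39, 9.76 and 10.05 at 48 hr and 11.93, 11.53, 11.96 and 11.57 at 72 hr (log2 change 1.69, SE 0.16, adjusted p = 0.00113). Megf10, an engulfment receptor known to keep myoblasts dividing, read 10.42, 11.00, 10.41 and 11.39 at 48 hr and 13.97, 13.16, 13.72 and 13.06 at 72 hr (log2 change 2.67, SE 0.28, adjusted p = 0.00147). Peg3, an imprinted zinc-finger gene found in tissue stem cells, read 8.48, 9.09, 8.67 and 9.09 at 48 hr and 12.71, 11.88, 12.55 and 11.41 at 72 hr (log2 change 3.31, SE 0.30, adjusted p = 0.000941). In all 3 the lowest 72 hr array was above the highest 48 hr array, as in every gene called higher, and the calls held without any 1 array. Sdc3, a heparan sulfate proteoglycan of the satellite cell surface, read 11.63, 11.89, 11.31 and 12.18 at 48 hr and 13.26, 12.98, 13.10 and 12.78 at 72 hr (log2 change 1.28, SE 0.19, adjusted p = 0.00532), and Mycl, a MYC family factor, rose by 2.04 (SE 0.27). The 2 falls were in Cd34, a surface sialomucin shared with endothelial cells, at 14.60, 14.49, 14.26 and 15.53 at 48 hr and 12.63, 13.02, 13.60 and 12.92 at 72 hr (log2 change -1.68, SE 0.30, adjusted p = 0.00934), and in the Notch target Heyl. Cxcr4, the receptor of the chemokine Cxcl12, read 7.70, 8.57, 7.66 and 8.41 at 48 hr and 9.38, 8.95, 9.16 and 9.03 at 72 hr and did not pass (log2 change 1.05, SE 0.23, adjusted p = 0.0181). The adjusted p reached 0.0223 without 48 hr replicate 7 for Sdc3, 0.0127 without 48 hr replicate 7 for Mycl and 0.033 without 72 hr replicate 1 for Cd34.

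Notch is the receptor pathway through which contacts between cells keep satellite cells undifferentiated, and its members split, with 3 of 26 called higher and 4 lower (list median 0.05). Of the receptors, Notch3 read 10.65, 10.96, 10.32 and 10.94 at 48 hr and 12.57, 12.11, 12.29 and 11.86 at 72 hr (log2 change 1.49, SE 0.19, adjusted p = 0.00297). Notch1 overlapped between times (log2 change 0.61, SE 0.27, adjusted p = 0.127). Notch4, known from endothelium, fell by 1.88 (SE 0.31). The glycosyltransferases that tune ligand choice moved apart, since Lfng rose by 1.64 (SE 0.23) and Mfng fell by 1.85 (SE 0.27). The Notch target Heyl read 8.24, 8.11, 8.39 and 8.37 at 48 hr and 7.36, 7.13, 7.20 and 7.71 at 72 hr and fell (log2 change -0.93, SE 0.14, adjusted p = 0.00542). Hes6, a family member that opposes Hes1 and promotes myogenesis, read 12.85, 13.15, 12.85 and 12.65 at 48 hr and 15.98, 15.38, 15.61 and 15.12 at 72 hr and rose (log2 change 2.65, SE 0.19, adjusted p = 0.000589). Hes6 passed without any 1 array, and the others did not: the adjusted p reached 0.0141 without 48 hr replicate 7 for Notch3, 0.0284 without 72 hr replicate 1 for Notch4, 0.0185 without 48 hr replicate 7 for Lfng, 0.0184 without 48 hr replicate 7 for Mfng and 0.0209 without 72 hr replicate 1 for Heyl.

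Genes on both sides of cell cycle control rose. Of 22 inhibitors, 4 were called higher and none lower (6 lower at an unadjusted p under 0.05). Cdkn2a, the locus of p16 and p19, read 10.08, 10.78, 10.38 and 11.00 at 48 hr and 13.43, 13.29, 13.82 and 12.91 at 72 hr (log2 change 2.80, SE 0.25, adjusted p = 0.000926). Its neighbor Cdkn2b, which encodes p15, read 10.21, 10.44, 10.20 and 10.87 at 48 hr and 12.95, 12.46, 12.97 and 12.14 at 72 hr (log2 change 2.20, SE 0.23, adjusted p = 0.00138). The growth-arrest gene Gas1 read 9.52, 9.92, 9.81 and 9.96 at 48 hr and 11.52, 11.31, 11.58 and 11.17 at 72 hr (log2 change 1.59, SE 0.14, adjusted p = 0.000828). These 3 passed without any 1 array. The inhibitors best known from differentiating muscle were not called, Cdkn1a at 0.39 (SE 0.21, adjusted p = 0.193) and Cdkn1c at -0.72 (SE 0.14, adjusted p = 0.0118), and Cdkn1c passed without the pooled array, with an adjusted p of 0.00263.

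Mitosis genes had a change above 0 in 37 of 38 cases, with a list median of 0.43, and 2 were called higher while 14 were higher at an adjusted p under 0.05. Cdc25b, the phosphatase that opens mitosis, read 12, 12.41, 11.85 and 12.55 at 48 hr and 13.36, 13.20, 13.44 and 13.09 at 72 hr (log2 change 1.07, SE 0.17, adjusted p = 0.00631). Nuf2, a kinetochore protein, rose by 0.78 (SE 0.14). Mki67, the proliferation antigen, read 13.96, 14.04, 13.74 and 14.42 at 48 hr and 14.75, 14.32, 14.62 and 14.21 at 72 hr and overlapped (log2 change 0.44, SE 0.18, adjusted p = 0.1). DNA replication genes had a change above 0 in 33 of 35 cases (list median 0.24), none passed 0.01 by limma, 7 were higher at an unadjusted p under 0.05, and 1 passed at an adjusted p under 0.05, Rrm2, a subunit of ribonucleotide reductase (log2 change 0.32, SE 0.09, adjusted p = 0.0424). Over all genes, 8436 of 20372 had an unadjusted p under 0.05 in either direction, and 13.1% were higher at an adjusted p under 0.05. At G1, Ccnd3, the cyclin that stays on in differentiating muscle, read 13.72, 13.77, 13.31 and 13.78 at 48 hr and 15.65, 15.17, 15.66 and 15.02 at 72 hr (log2 change 1.73, SE 0.18, adjusted p = 0.00147). Skp2, which marks the inhibitor p27 for degradation, rose by 1.16 (SE 0.14), and Ccnd1 overlapped (log2 change 0.51, SE 0.17, adjusted p = 0.0624). Ccnd3 held without any 1 array, and the adjusted p was 0.0109 without 48 hr replicate 7 for Skp2, 0.0251 without 72 hr replicate 1 for Cdc25b and 0.0343 without 48 hr replicate 7 for Nuf2.

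Trp53, the gene of p53, read 9.53, 9.88, 9.70 and 9.65 at 48 hr and 10.45, 10.22, 10.41 and 10.09 at 72 hr. The times did not overlap, and the log2 change of 0.60 (SE 0.12) had an adjusted p of 0.0129, short of 0.01. It passed in 1 of 8 fits without 1 array. Of a list of 31 genes, made up of p53 targets and the p53 family itself, 1 was called higher and none lower (4 lower at an unadjusted p under 0.05), 22 had a change above 0 and the list median was 0.23. Over all genes tested, 56.5% had a change above 0. The called target was Trp53inp1, a stress protein that binds p53, at 9.57, 9.85, 9.78 and 10.09 at 48 hr and 11.98, 11.16, 12.23 and 10.96 at 72 hr (log2 change 1.76, SE 0.29, adjusted p = 0.00676), and that p was 0.027 without 48 hr replicate 7.

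Of 16 tested genes of the imprinted growth network (list of 18, median 0.56), 5 rose and none was called lower (2 lower at an unadjusted p under 0.05). Mest, a maternally imprinted hydrolase gene, read 9.19, 9.60, 9.08 and 9.55 at 48 hr and 13.53, 11.74, 13.22 and 11.74 at 72 hr (log2 change 3.203, SE 0.42, adjusted p = 0.00317). Zim1, which lies in the Peg3 domain, read 5.24, 5.94, 5.61 and 6.19 at 48 hr and 8.23, 7.23, 8.14 and 7.33 at 72 hr (log2 change 1.99, SE 0.29, adjusted p = 0.00482). With them rose Peg3, Plagl1 (1.57, called in 3 of 8 fits without 1 array) and Peg10 (1.43, called in 1 of 8). Igf2, a growth factor of the same network that myoblasts make as they differentiate, was well above background on 3 of 4 arrays at 48 hr and overlapped between times (log2 change 0.99, SE 0.38, adjusted p = 0.0866). H19, its noncoding neighbor, also overlapped (log2 change 0.50, SE 0.24, adjusted p = 0.154). Of the insulin-like growth factor genes 1 of 16 was called, the binding protein Igfbp2, at 5.98, 6.56, 6.11 and 7.52 at 48 hr and 10.17, 9.52, 11.07 and 9.34 at 72 hr (log2 change 3.48, SE 0.45, adjusted p = 0.00296). The adjusted p reached 0.0149 without 48 hr replicate 7 for Mest, 0.0172 without 48 hr replicate 7 for Zim1 and 0.0131 without 48 hr replicate 7 for Igfbp2.

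Among growth factor pathways, the rise among the FGF genes was in Fgfr4, a receptor of myoblasts, which read 10.68, 10.91, 10.15 and 10.32 at 48 hr and 13.08, 12.36, 13.13 and 12.42 at 72 hr (log2 change 2.23, SE 0.24, adjusted p = 0.00149). The ligands Fgf2 and Fgf18 fell, Fgf2 by 1.29 (SE 0.13) and Fgf18 by 1.27 (SE 0.16). Of the Wnt pathway, in which ligands bind Frizzled receptors, 7 of 34 tested genes were called higher and 1 lower (list median -0.01). At an adjusted p under 0.05 by limma 10 were higher and 7 lower, and 17 had a change above 0 and 17 below it. The ligands Wnt7b and Wnt10b rose by 2.11 (SE 0.28) and 1.76 (SE 0.22), the receptor Fzd2 by 1.53 (SE 0.18), and Wnt5a fell by 0.79 (SE 0.11). The other 4 called higher were Wnt6 (1.25), Fzd6 (1.20) and the transcription factors Lef1 (1.02) and Tcf7 (1.24), and of these Wnt6 and Tcf7 held in all 8 fits without 1 array, Fzd6 in 3 and Lef1 in 1. Of the TGF-beta and BMP pathway 1 of 35 was called higher and 3 lower, the falls in Inhba, the activin subunit, at 14.57, 14.49, 14.56 and 15.06 at 48 hr and 12.42, 12.82, 12.58 and 13.25 at 72 hr (log2 change -1.90, SE 0.20, adjusted p = 0.00147), in the co-receptor Tgfbr3 and in Bmp2. Mstn, the muscle growth inhibitor myostatin, overlapped between times (log2 change -0.71, SE 0.50, adjusted p = 0.311).

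The ERK feedback genes are transcribed when the kinase is active. Etv1 and Etv4, ETS factors of that group, rose by 2.13 (SE 0.21) and 1.17 (SE 0.13), and these were the 2 called of 17. The list median was 0.085, and at an adjusted p under 0.05 by limma 5 were higher and 3 lower. Kinase activity was not tested. Mapk3, which encodes the kinase ERK1, overlapped between times (log2 change 0.21, SE 0.14, adjusted p = 0.3). The immediate early factors had a change below 0 in 16 of 19 cases (list median -0.61), with 11 lower at 0.05 and 1 at 0.01, the orphan receptor Nr4a1 at 15.30, 15.20, 15.34 and 15.86 at 48 hr and 14.03, 13.78, 13.58 and 14.71 at 72 hr (log2 change -1.40, SE 0.25, adjusted p = 0.00964). Fgfr4, Fgf2, Inhba, Etv1 and Etv4 passed without any 1 array. The adjusted p otherwise reached 0.0108 without 48 hr replicate 7 for Fgf18, 0.0145 without 72 hr replicate 1 for Wnt7b, 0.0134 without 48 hr replicate 7 for Wnt10b, 0.0108 without 48 hr replicate 7 for Fzd2, 0.0176 without 72 hr replicate 1 for Wnt5a, 0.0184 without 48 hr replicate 7 for Tgfbr3, 0.0242 without 48 hr replicate 7 for Bmp2 and 0.033 without 72 hr replicate 1 for Nr4a1.

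Inflammatory ligands fell more often than they rose. Of 26 chemokine and interleukin genes tested in a list of 33, 22 had a change below 0, 6 were called lower and 2 higher, with a list median of -1.45. Csf2, the growth factor GM-CSF, read 8.72, 8.58, 8.27 and 9.65 at 48 hr and 5.35, 5.62, 5.31 and 6.27 at 72 hr (log2 change -3.17, SE 0.32, adjusted p = 0.00132). Cxcl2, a chemokine for neutrophils, read 9.01, 9.36, 8.39 and 11.13 at 48 hr and 6.53, 5.64, 6.43 and 6.86 at 72 hr (log2 change -3.11, SE 0.55, adjusted p = 0.00887). Il33, an alarmin of stromal cells, read 8.21, 8.202, 8.49 and 8.68 at 48 hr and 6.38, 6.68, 7.11 and 6.28 at 72 hr (log2 change -1.78, SE 0.20, adjusted p = 0.00176). The rises were in Il1b, an inflammatory interleukin, by 1.94 (SE 0.30), and in Ackr3, the scavenger receptor of Cxcl12, by 1.09 (SE 0.14). The pooled array was the highest 48 hr array in Csf2, Cxcl2 and Il33, and without it their adjusted p were 0.00107, 0.00292 and 0.00256. Csf2 and Il33 passed without any 1 array, and the adjusted p of Cxcl2 reached 0.0298 without 72 hr replicate 1. Of 21 interferon-stimulated genes 6 were called lower and none higher (list median -1.13, 0 higher at an unadjusted p under 0.05), among them the antiviral synthetase Oas1a at 9.01, 8.12, 8.04 and 9.07 at 48 hr and 5.86, 6.69, 5.48 and 6.71 at 72 hr (log2 change -2.38, SE 0.36, adjusted p = 0.00521) and Usp18, which removes ISG15 from proteins, at -1.95 (SE 0.29). The adjusted p reached 0.0208 without 72 hr replicate 1 for Oas1a, 0.02 without 72 hr replicate 1 for Usp18, 0.0231 without 48 hr replicate 7 for Il1b and 0.0139 without 72 hr replicate 1 for Ackr3.

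Of 21 endothelial markers 13 fell and none was called higher (0 higher at an unadjusted p under 0.05), 20 had a change below 0, and the list median was -2.12. At 48 hr their summed intensity lay between 28030 and 58830, at 72 hr between 14400 and 19100. Flt1, a receptor of vascular endothelial growth factors, read 11.16, 11.26, 10.39 and 11.95 at 48 hr and 8.54, 9.003, 7.97 and 8.66 at 72 hr (log2 change -2.65, SE 0.33, adjusted p = 0.00273). Emcn, an endothelial sialomucin, read 7.72, 7.91, 7.25 and 8.58 at 48 hr and 5.44, 5.57, 4.25 and 5.04 at 72 hr (log2 change -2.79, SE 0.35, adjusted p = 0.00273). Sox17, a transcription factor of arteries, read 8.59, 8.63, 7.77 and 9.04 at 48 hr and 6.10, 6.54, 4.48 and 6.12 at 72 hr (log2 change -2.69, SE 0.45, adjusted p = 0.00737). The pooled array was highest at 48 hr in all 3, and 12 of the 21 were called lower without it. The adjusted p reached 0.0126 without 48 hr replicate 7 for Flt1, 0.012 without 48 hr replicate 7 for Emcn and 0.0283 without 48 hr replicate 7 for Sox17. In the joint normalization of 16 arrays the list averaged 9.35 to 10.4 and 7.36 to 8.44 at 48 and 72 hr, against 12.3 to 12.7 and 10.8 to 11.2 in dispersed myoblasts.

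Among the remaining large falls were secreted factors. Penk, which encodes the precursor of enkephalins, read 14.80, 14.69, 14.71 and 16.24 at 48 hr and 11.77, 12.21, 12.76 and 12.31 at 72 hr, highest on the pooled array (log2 change -2.85, SE 0.37, adjusted p = 0.00297). Stc1, the hormone stanniocalcin, read 7.13, 7.21, 6.79 and 7.98 at 48 hr and 4.89, 3.27, 4.93 and 5.17 at 72 hr (log2 change -2.71, SE 0.43, adjusted p = 0.00631) and was well above background on 3 of 4 arrays at 72 hr. Gimap1, a GTPase of lymphocytes, fell by 2.83 (SE 0.50) and was above background on 2 of 4 at 72 hr. All 3 calls depended on single arrays, with an adjusted p of 0.012 without 72 hr replicate 1, 0.0228 without 48 hr replicate 7 and 0.0322 without 48 hr replicate 7, in that order.

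Markers of other cells moved in both directions. Of 17 fibroblast genes 3 were called lower and 1 higher (list median -0.55, summed intensity 104300 to 242200 at 48 hr and 67810 to 101000 at 72 hr), the falls in the matrix genes Dpt, Lum and Col1a1. Lum, lumican, read 11.67, 11.65, 11.76 and 12.31 at 48 hr and 9.35, 9.91, 9.95 and 10.10 at 72 hr (log2 change -2.02, SE 0.20, adjusted p = 0.00129). Of 17 leukocyte genes 1 was called higher, Laptm5, a lysosomal protein of blood cells, at 5.65, 5.78, 5.57 and 5.10 at 48 hr and 8.42, 7.92, 8.49 and 7.16 at 72 hr (log2 change 2.47, SE 0.30, adjusted p = 0.00234), while 14 had a change below 0 and the summed intensity was 21800 to 29580 and 17100 to 20810. The pan-leukocyte marker Ptprc was too dim to be tested. Among 5 adipocyte genes 2 were called lower, the lipid carrier Fabp4 by 2.07 (SE 0.25) and Lpl by 0.53 (SE 0.09), and Adipoq and Plin1 were too dim. Thbs4, a tendon matrix protein, fell by 2.60 (SE 0.43) and the tendon factor Mkx rose by 1.24 (SE 0.22), and Hba-a1, a hemoglobin chain, fell by 1.44 (SE 0.14). Of 12 pericyte and 4 mast cell genes 1 each was called, Notch3 and the transcription factor Gata2, both higher. Of the pericyte genes 9 of 12 had a change below 0, 6 were lower at an adjusted p under 0.05 and the median was -0.58, and of the mast cell genes 2 of 4 were lower at that threshold and the median was -0.98. Of 8 Schwann cell genes none passed by limma, while 2 were higher and 3 lower at an unadjusted p under 0.05. The part of these cells in the changes of other genes was not tested. Lum and Hba-a1 held without any 1 array, and the adjusted p reached 0.0109 without 48 hr replicate 7 for Dpt, 0.0312 without 72 hr replicate 1 for Col1a1, 0.0108 without 48 hr replicate 7 for Laptm5, 0.0112 without 72 hr replicate 1 for Fabp4, 0.0261 without 72 hr replicate 1 for Lpl, 0.0282 without 48 hr replicate 7 for Thbs4, 0.0333 without 48 hr replicate 7 for Mkx and 0.0308 without 72 hr replicate 1 for Gata2.

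Matrix and adhesion genes moved in both directions. Itgb4, the integrin subunit that binds laminin in hemidesmosomes, read 8.07, 9.05, 8.01 and 8.01 at 48 hr and 12.78, 11.62, 12.48 and 11.29 at 72 hr (log2 change 3.76, SE 0.37, adjusted p = 0.00123). The laminin chain Lamb3 read 9.84, 10.70, 9.92 and 10.57 at 48 hr and 12.26, 11.85, 11.997 and 11.54 at 72 hr (log2 change 1.65, SE 0.24, adjusted p = 0.00422). Itga11, a collagen-binding integrin subunit, read 8.80, 8.49, 8.59 and 7.94 at 48 hr and 5.87, 6.56, 5.74 and 7.29 at 72 hr and fell (log2 change -2.09, SE 0.35, adjusted p = 0.00728). Of 33 integrin and laminin genes 3 were called higher and 4 lower. Of 23 collagen chains 1 was called higher, Col27a1, and 3 lower, the largest of these in Col6a3 at 13.38, 13.10, 13.32 and 13.34 at 48 hr and 11.36, 11.47, 11.48 and 12.20 at 72 hr (log2 change -1.66, SE 0.19, adjusted p = 0.00182). Spp1, osteopontin, rose by 1.003 (SE 0.10), and Timp3, an inhibitor of metalloproteases bound to matrix, read 11.12, 10.01, 10.43 and 9.90 at 48 hr and 8.24, 8.11, 8.07 and 8.27 at 72 hr (log2 change -2.19, SE 0.25, adjusted p = 0.00188). Itgb4, Spp1 and Timp3 held without any 1 array, and the adjusted p was up to 0.0162 without 72 hr replicate 1 for Lamb3, 0.0283 without 48 hr replicate 7 for Itga11 and 0.01001 without 48 hr replicate 7 for Col6a3.

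The lists of metabolism and stress gave few calls. Of all genes tested, 3.57% were called higher and 1.51% lower, and the counts are to be read against those shares. Of 31 respiratory chain genes and 30 ribosome biogenesis genes none passed 0.01 by limma, and the list medians were 0.01 and -0.02. At an unadjusted p under 0.05 there were 5 higher and 1 lower genes in the first list and 2 higher and 4 lower in the second. Over all genes tested, 8436 of 20372 passed that threshold in either direction. Cox7a1, the heart and muscle isoform of a cytochrome oxidase subunit, was the lowest of the respiratory chain and overlapped (log2 change -1.79, SE 0.58, adjusted p = 0.0573). The lowest change in ribosome biogenesis was in Rrp12 (log2 change -0.59, SE 0.11, adjusted p = 0.0103). Of 27 genes of the unfolded protein response and heat shock, none passed 0.01 by limma, and 3 were higher and 11 lower at an unadjusted p under 0.05. Cholesterol synthesis genes had a change above 0 in 23 of 25 cases (list median 0.38), with 1 called, Dhcr7, which makes cholesterol in the last step (log2 change 0.95, SE 0.16, adjusted p = 0.00711). Glycolysis and phosphocreatine genes gave 1 call in each direction, a rise of 1.48 (SE 0.24) in Gatm, which makes the creatine precursor, and a change of -1.02 (SE 0.16) in Pfkfb3, a regulator of glycolysis. Of 22 antioxidant and metallothionein genes 1 was called higher and 3 lower (list median -0.46). Metallothionein Mt1 fell by 1.49 (SE 0.17) and the extracellular dismutase Sod3 by 1.98 (SE 0.24), and of 18 hypoxia genes 1 was called higher and 3 lower, where the oxygen-sensing factor Epas1 fell by 1.597 (SE 0.19). Gabarapl1, an autophagy gene, was the 1 called gene of 21 in the atrophy and autophagy list and fell by 0.67 (SE 0.11). None of the calls of this paragraph held in every fit, and the adjusted p reached 0.0272 without 72 hr replicate 1 for Dhcr7, 0.0258 without 48 hr replicate 7 for Gatm, 0.0225 without 72 hr replicate 1 for Pfkfb3, 0.0101 without 48 hr replicate 7 for Mt1, 0.0107 without 48 hr replicate 7 for Sod3, 0.0109 without 48 hr replicate 7 for Epas1 and 0.0249 without 72 hr replicate 1 for Gabarapl1.

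**Figure D4:**
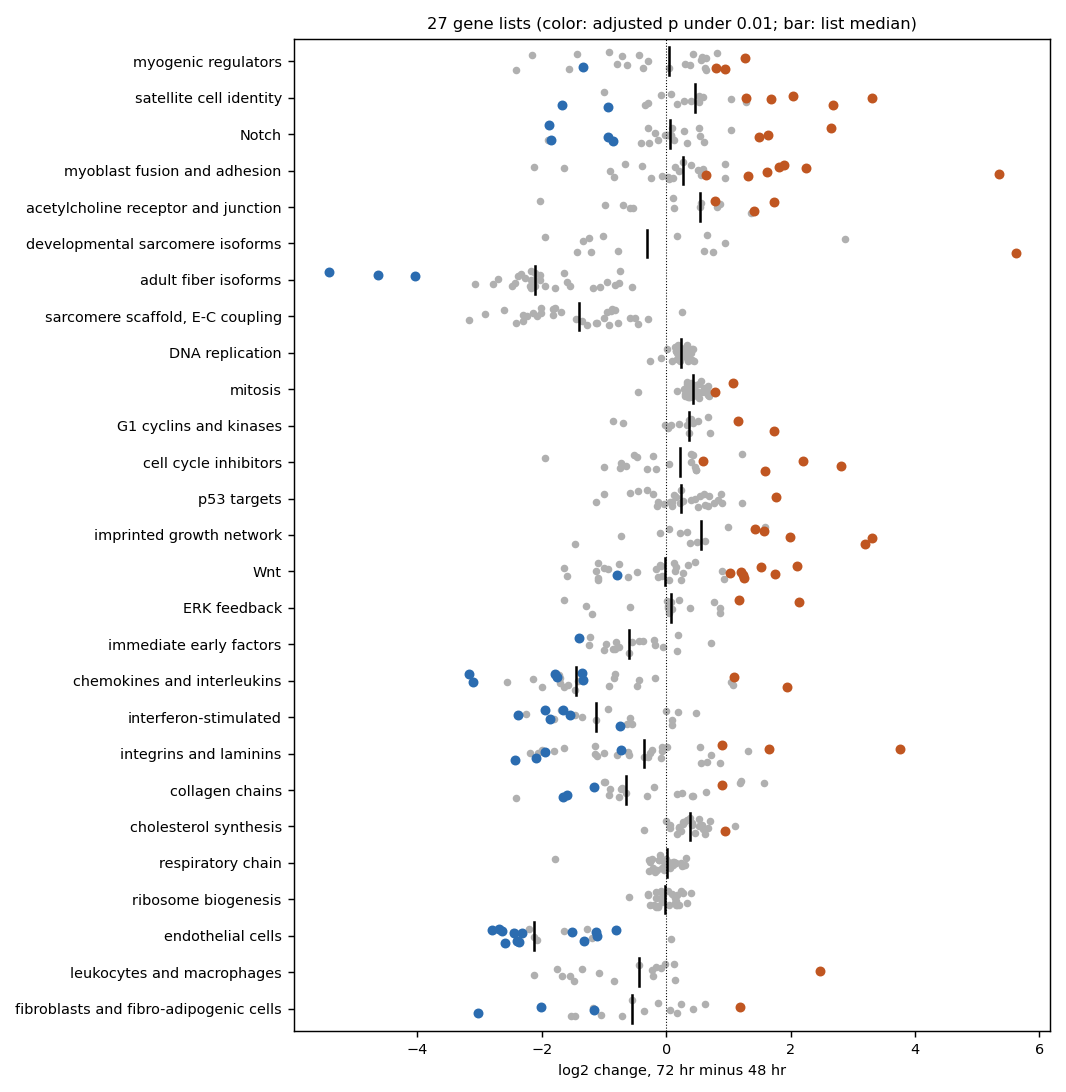
Log2 change from 48 to 72 hr (horizontal axis) of every tested member of 27 gene lists (rows), gray for members not called, orange for those called higher, blue for those called lower, with a black bar at each list's median. Adult fiber isoforms, the sarcomere scaffold and endothelial genes lie almost wholly left of 0, and mitosis and DNA replication genes lie close together just right of it with medians of 0.43 and 0.24.

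The change over time differed from that in dispersed myoblasts in 701 of 20317 genes by limma's interaction test on 16 arrays, 480 with a change above (2.36%) and 221 with a change below (1.09%) that of the dispersed cells. Myog showed the widest gap among the genes named for their roles. In the joint normalization Myog read 14.01, 14.21, 15 and 13.98 on the myofiber-associated arrays at 48 hr and 13.14, 14.02, 12.70 and 14.80 at 72 hr, against 6.67, 5.94, 5.72 and 5.86 and 9.60, 9.90, 9.95 and 10.40 in dispersed myoblasts. It was thus brighter on every myofiber-associated array than on any dispersed array, and the difference between its changes was -4.55 (SE 0.54, adjusted p = 0.000482). Pax7 differed the other way, with a change in dispersed myoblasts of 0.19 and a difference of 1.49 (SE 0.23, adjusted p = 0.00191). So did Notch3 (difference 1.71, adjusted p = 0.0039), Sdc3 (1.17, adjusted p = 0.00483), Cxcr4 (1.69, adjusted p = 0.00439) and Trp53 (0.67, adjusted p = 0.0079). At 48 hr Pax7, Notch3, Cxcr4 and Trp53 read lower on every myofiber-associated array than on any dispersed array of that time. Trp53 read 9.66 to 10.03 against 10.47 to 10.6, and at 72 hr 10.24 to 10.59 against 10.29 to 10.59. Notch3 also overlapped at 72 hr, with 12.7 as its highest value against 12.75. Pax7 (11.67 to 12.1 against 10.95 to 11.67) and Cxcr4 (9.08 to 9.51 against 8.205 to 8.828) were at or above every dispersed array at 72 hr.

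The largest rises and falls were chosen by their change on the myofiber-associated arrays, which favors a difference between cultures. Of the largest rises, Diras2 had a change of -0.27 in dispersed myoblasts and a difference of 4.61 (SE 0.39, adjusted p = 0.000147). The differences for Sct, 2.07 (adjusted p = 0.02), Mymx, 1.98 (adjusted p = 0.0363), and Myh3, 3.38 (adjusted p = 0.0412), did not pass, and their changes in dispersed myoblasts were 3.97, 3.49 and 3.36. Among the falls, Csf2 had a dispersed change of 0.49 and a difference of -3.75 (SE 0.63, adjusted p = 0.00312), and Myl3 a difference of -4.07 (SE 0.77, adjusted p = 0.0053). Of the lists, 6 of 31 sarcomere scaffold genes, 6 of 20 of satellite cell identity, 6 of 33 of Wnt and 1 of 21 endothelial genes differed between cultures. The count of 701 depended on single arrays, from 353 without 72 hr replicate 1 to 1766 without 72 hr replicate 4 and 2368 without the pooled array. It was also 369 without 48 hr replicate 7, 392 without 48 hr replicate 9 and 404 without 72 hr replicate 3.

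**Figure D5:**
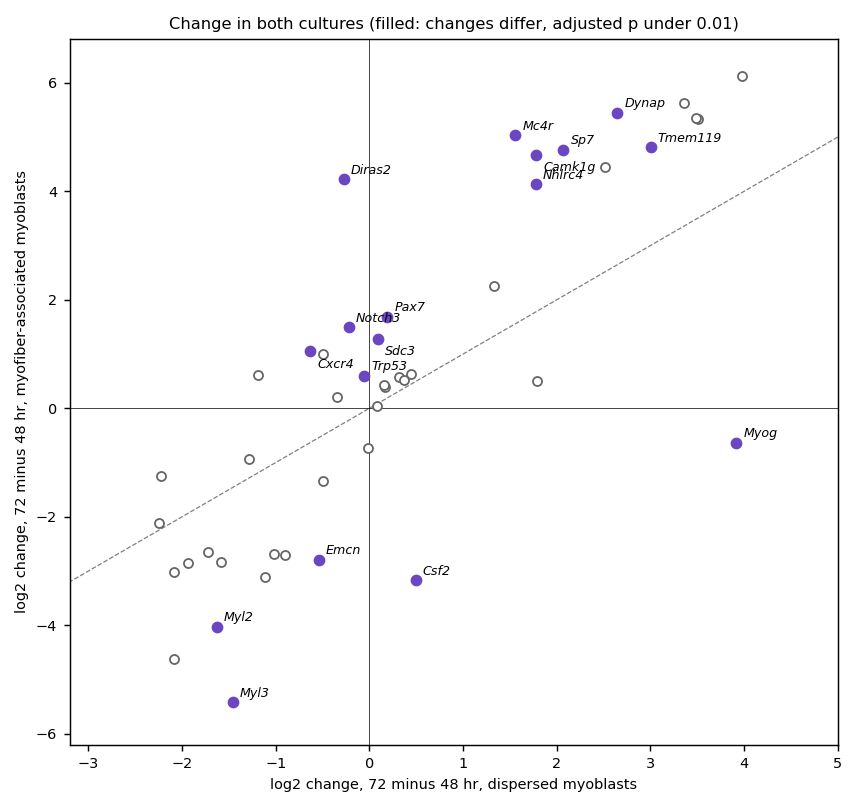
Log2 change from 48 to 72 hr in myofiber-associated (vertical) against dispersed myoblasts (horizontal) for 46 genes, the largest rises and falls and the genes named for their roles, with the dashed line where both are equal. Filled and named points are the 17 genes whose changes differ at an adjusted p under 0.01, Myog far to the right at a myofiber-associated change of -0.63 and Diras2 high on the left. The largest rises and falls were chosen by the change on the vertical axis.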

How the data were processed

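Gene expression was measured in 8 preparations of myofiber-associated myoblasts (4 at 48 hr, 4 at 72 hr) and, for 1 comparison, in 8 of dispersed myoblasts. The deposited intensities are, per the file headers, 1-color Agilent signals from Feature Extraction 11.0.1.1, corrected by it for background but not normalized. The authors also deposited their own normalized values, log2 ratios in which the 72 hr arrays stand against the averaged 48 hr arrays, used here as an alternative. Their processing notes name limma without a version.

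Here the log2 intensities of 59305 gene spots were fitted by loess (span 0.3, 4 iterations) against the averaged 48 hr arrays and quantile normalized over the 8 arrays. Spots of 1 probe were averaged, the brightest probe stood for each of 34836 gene names, and 20372 genes with a median log2 intensity of at least 5 were tested. The study's own test, samr, was not used here, and limma 3.58.1 in R 4.3.3 (eBayes, Benjamini-Hochberg) took its place, with a call at an adjusted p under 0.01. The difference between cultures was an interaction term over 16 arrays normalized the same way. Replicates are separate preparations. With 4 arrays a group an exact permutation test cannot go below 0.0286, and the number of arrays limits the precision.

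Named genes are the 12 largest called rises and falls under a current gene symbol (at 48 or 72 hr measured above background on all 4 arrays), 28 genes chosen for their roles and, per list, up to 3 called members a direction with the largest changes (up to 2 with the smallest adjusted p where none was called). Others are named as list members only. Some genes that the rule names are not reported here. Members and lists were chosen with earlier results of these data known. Gene names are those of the myofiber-associated arrays, and 14522 of the tested names matched a RefSeq symbol. Promoters are RefSeq sequences on GRCm38.p6, 1 a gene. No microRNA was measured. The scripts were tested on simulated data. Alternatives changed the background correction, the normalization, the filter, the probe rule, the variance model, the slide row and the arrays included. Figures used matplotlib 3.10.9.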

Additional observations from a re-analysis of the deposited data

Results flagged for a closer look

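Within a time, the values of the 146 named genes were searched for 1 array far from the other 3, in 292 groups of 4. By chance about 1 group in 20 is found this way, and 12 were found, 9 of them at 48 hr and 6 on the pooled array. On the pooled array Sp7 read 6.296 (the other 48 hr arrays 4.588 to 4.686), Penk 16.24 (14.69 to 14.8), Lum 12.31 (11.65 to 11.76) and Inhba 15.06 (14.49 to 14.57), all above the rest. Cdkn1c read 9.054 there (9.501 to 9.573) and the cadherin Cdh15 11.71 (12.41 to 12.54), both below the rest. At 48 hr, replicate 8 read 9.054 in Itgb4 (8.009 to 8.069) and 9.812 in Tgfbr3 (10.27 to 10.34), and replicate 9 read 13.31 in Ccnd3 (13.72 to 13.78). At 72 hr, replicate 4 read 9.94 in Jph2 (9.435 to 9.49) and 12.2 in Col6a3 (11.36 to 11.48), and replicate 2 read 3.273 in Stc1 (4.887 to 5.172).

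The change from 48 to 72 hr was compared between cultures for 46 named genes by limma's interaction test, and 17 differed at an adjusted p under 0.01 over all 20317 genes. Of all 20317 genes, 701 differed. The 46 include the largest rises and falls, chosen by their change on these same myofiber-associated arrays, which favors a difference for them. The count of 17 is thus a description. Each value is the log2 change in myofiber-associated minus that in dispersed myoblasts. It was above 0, with the adjusted p in brackets, for Dynap 2.818 (0.00335), Mc4r 3.592 (0.00109), Tmem119 1.818 (0.00415), Sp7 2.811 (0.00885), Camk1g 2.916 (0.0027), Diras2 4.612 (0.000147), Nhlrc4 2.461 (0.00144), Pax7 1.491 (0.00191), Trp53 0.6678 (0.0079), Notch3 1.706 (0.0039), Cxcr4 1.694 (0.00439) and Sdc3 1.174 (0.00483). It was below 0 for Myl3 -4.065 (0.0053), Myl2 -2.51 (0.00508), Csf2 -3.745 (0.00312), Emcn -2.332 (0.0037) and Myog -4.553 (0.000482). Dispersed preparations used 1 mouse and lay on another slide, and so culture and slide cannot be separated.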

How the results depend on the processing

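No direction of a named gene reversed under any alternative, and 384 of the 1036 called genes were also called without a filter on low signal. Over all called genes, normexp reversed 1 and the mean of all probes 6. The count of 1036 called genes (728 higher, 308 lower) was 445 (317, 128) without the filter, 511 (366, 145) with slide row as a block, 5780 (3387, 2393) in 1 fit of all 16 arrays, 8384 (4710, 3674) with array weights and 3474 (2047, 1427) from the deposited log2 ratios tested against 0. The share of higher calls was 70.3%, against 58.6% with 16 arrays, 56.2% with weights and 58.9% from the ratios. These 3 take the spread of the 48 hr arrays otherwise than the 8-array fit does, and the cause of the larger counts was not tested. Leaving out 1 array gave 205 to 1994 calls, 171 to 1387 higher and 34 to 607 lower, with a share of higher calls of 83.4% without 48 hr replicate 7 and 80.5% without 72 hr replicate 1. The other 6 alternatives gave 837 to 1186. After normexp the filter removed no gene. The 701 genes that differed between cultures were 409 without the filter, 353 to 2368 without 1 array, and 594 to 834 under the other 3 alternatives.

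Of the 146 named genes, 30 lost their call with normexp, 58 without the filter and 41 with the slide row block. No alternative moved the median of all genes outside 0.0132 to 0.0781. The list medians of Wnt, ribosome biogenesis, respiratory chain, myogenic regulators, FGF and insulin-like growth factors changed sign under some alternatives. No paired analysis was possible because the 48 and 72 hr arrays of this culture share no replicate number. Genes near background, Myh3 among them, have the least certain folds.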

Other observations

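The genes of these paragraphs were grouped after their values were seen, and their counts are descriptions. Of 17 skeletal genes tested, 9 rose. Besides Tmem119 and Sp7 these included Col10a1, the collagen of growth plate cartilage, with 3.52, 2.98, 3.01 and 4.40 on 48 hr replicates 7, 8, 9 and 10+11 and 7.71, 7.08, 7.20 and 6.49 on 72 hr replicates 1 to 4 (log2 change 3.64, SE 0.36, adjusted p = 0.00121), well above background on 1 of 4 arrays at 48 hr. Dlx2, a homeodomain factor of the facial skeleton, rose by 3.02 (SE 0.26). Dmp1, a matrix protein of osteocytes, rose by 1.90 (SE 0.14, adjusted p = 0.000677) and changed by 0.08 in dispersed myoblasts, a difference with an adjusted p of 0.000147. Bglap2 (2.44), Col2a1 (2.13), Phex (1.62) and Runx2 (0.93), the factor that starts the bone lineage, also passed. Without 1 array the last 4 lost their calls, with an adjusted p of up to 0.0301, 0.0176, 0.0143 and 0.0348. Alpl, alkaline phosphatase, had a change of -0.69 (adjusted p = 0.0339).

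Class 3 semaphorins are secreted guidance proteins that bind plexins and neuropilins. Of 6 tested, Sema3e (3.22, SE 0.33) and Sema3a (2.49, SE 0.25) rose, and Sema3c, Sema3f and Sema3g fell, by 1.48 (SE 0.18), 1.89 (SE 0.24) and 2.05 (SE 0.34). Of 11 plexins and neuropilins, Plxnc1 and Plxna3 rose by 1.73 and 1.65, and Plxna4 fell by 1.84 (SE 0.18). Sema3e, Sema3a and Plxna4 passed without any 1 array, and the adjusted p of the others reached 0.0114 for Sema3c, 0.0126 for Sema3f, 0.0291 for Sema3g, 0.0305 for Plxnc1 and 0.0190 for Plxna3.

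Among 9 genes of the skin's cornified envelope, Crct1 (3.44, SE 0.53), Prr9 (3.34, SE 0.23) and Lor (3.12, SE 0.26), the gene of loricrin, rose. In dispersed myoblasts their changes were 1.39, 2.13 and 1.95, in that order. Prr9 and Lor passed without any 1 array, and Crct1 was called in 4 of 8 such fits, with an adjusted p of up to 0.0209. The values of basal keratins overlapped between times. Krt14 had a change of 0.15 (adjusted p = 0.649) and Krt5 of -0.24 (adjusted p = 0.333).

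A probe for a long noncoding transcript on the plus strand of chromosome 1 rose by 4.10 (SE 0.33, adjusted p = 0.000764), and its change was larger than in dispersed myoblasts (difference 2.996, adjusted p = 0.00144). By gene order it lies between Pkhd1 and Mcm3, where RefSeq lists 8 genes, among them Lincmd1 and the muscle microRNAs Mir206 and Mir133b. It was well above background on 2 of 4 arrays at 48 hr and 4 of 4 at 72 hr.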
